A study of Oryza sativa with 12 samples.

Results

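Metallothioneins are small, cysteine-rich proteins that bind metal ions, and 6 rice genes of this family were selected by name: MT1A, MT2A, MT2B, MT2C, MT3A and MT3B. Of the 6 names, 4 each belonged to a single annotated gene with at least 1 probe set paired with that gene alone, and the names MT3A and MT3B were matched to none and were not analysed. The 4 matched genes hold 14 of the 57194 probe sets that are not array controls, namely 1 for MT1A, 4 for MT2A, 4 for MT2B and 5 for MT2C. Members were chosen by their names and by measured values of these arrays, since the lower reading of MT2C in the OsMYB30 overexpression lines was already known. Differences of the members between overexpression lines and their control are therefore given as a description, with no p-value.

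RNA of the shoots with their leaves, taken from rice seedlings at the 4-leaf stage, was labelled with biotin and hybridised to 12 GeneChip arrays, 1 for each of 6 lines at both times. In the cultivar ZH11 there were OsMYB30 overexpression lines 2 and 28 and 1 ZH11 control line. In the cultivar Huayang there were osmyb30 homozygous mutant lines 1 and 2 and 1 Huayang wild type line. Each line was sampled after 6 h at 4 °C and before the cold. OsMYB30 is a MYB transcription factor gene, and the comparisons ask how its excess, its loss and cold alter transcript levels. The promoter of the transgene, the nature of the mutant allele and the number of plants in a sample are not given in the labels. No samples kept 6 h without cold are labelled, so the effects of cold and of elapsed time cannot be told apart. Each overexpression or mutant line stands for 1 replicate, and the spread between replicates is that between 2 lines.

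Plant metallothioneins hold metals such as copper and zinc through clusters of cysteine residues, and they also react with reactive oxygen species. The plant proteins fall into types by the spacing of their cysteines. Transcripts of type 1 are known to be abundant in roots and those of type 2 in leaves of many plants, and type 4 in seeds. The names used here are those of the annotation, and published names of the family cross: the gene called MT2C here is also listed as OsMT2b, and the gene called MT2B here is also listed as OsMT2c. Nucleotide and protein sequences were not used here.

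Array medians ran from 34.7 to 37.2 on a linear intensity scale that spanned 2.9 to 23434.8. Markers of leaf and green tissue were bright, and the summed intensity of 7 such genes was 71965.5 to 73823.6 in overexpression arrays, 72283 to 72781.4 in ZH11 control arrays, 71167.4 to 72863.4 in mutant arrays and 71325.7 to 72362.6 in wild type arrays. A probe set at or below 73.9 was taken as dim, a limit chosen after the data were seen: it is the highest reading of 62 control probe sets with names starting in RPTR, without the 2 bright ones of that class. Of 3 root markers, the silicon efflux transporter LSI2 and the aquaporin NIP3-1 were dim on all arrays, as were 4 of 5 seed storage genes. No probe set was paired with OsMYB30, so the labels could not be checked on the targeted gene. One of the bright RPTR probe sets read 7940.3 to 10805.7 in the 4 overexpression arrays and 25.8 to 113.5 in the 8 others. The other bright one read 11860.8 to 12539.4 in overexpression arrays, against 18.6 and 64.3 in ZH11 control arrays. The same probe set read 13835.2 to 17781.9 in mutant arrays, against 3821.8 at 6 h and 2658.5 before cold in the arrays labelled Huayang wild type. This reading bears on every comparison of the mutants with the library labelled wild type, and its part in those results was not tested.

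Among the 14 probe sets, 11 passed the filter on low values and entered the tests. The 3 others were dim on all 12 arrays. They were 2 probe sets of MT2A, at 9.8 to 14.3 and 13.4 to 33.5, and 1 of MT2B, at 7.9 to 21.5. The brightest probe set of a gene stands for that gene below, and intensities of different probe sets are not set against each other. Probe set names ending in _x_at mark probes that resemble other sequences, and those ending in _s_at mark several transcripts, so signal from near-identical paralogues cannot be separated there. Names ending in _a_at mark several transcripts of the same gene, and signal from paralogues was not checked for them.

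**Figure D1:**
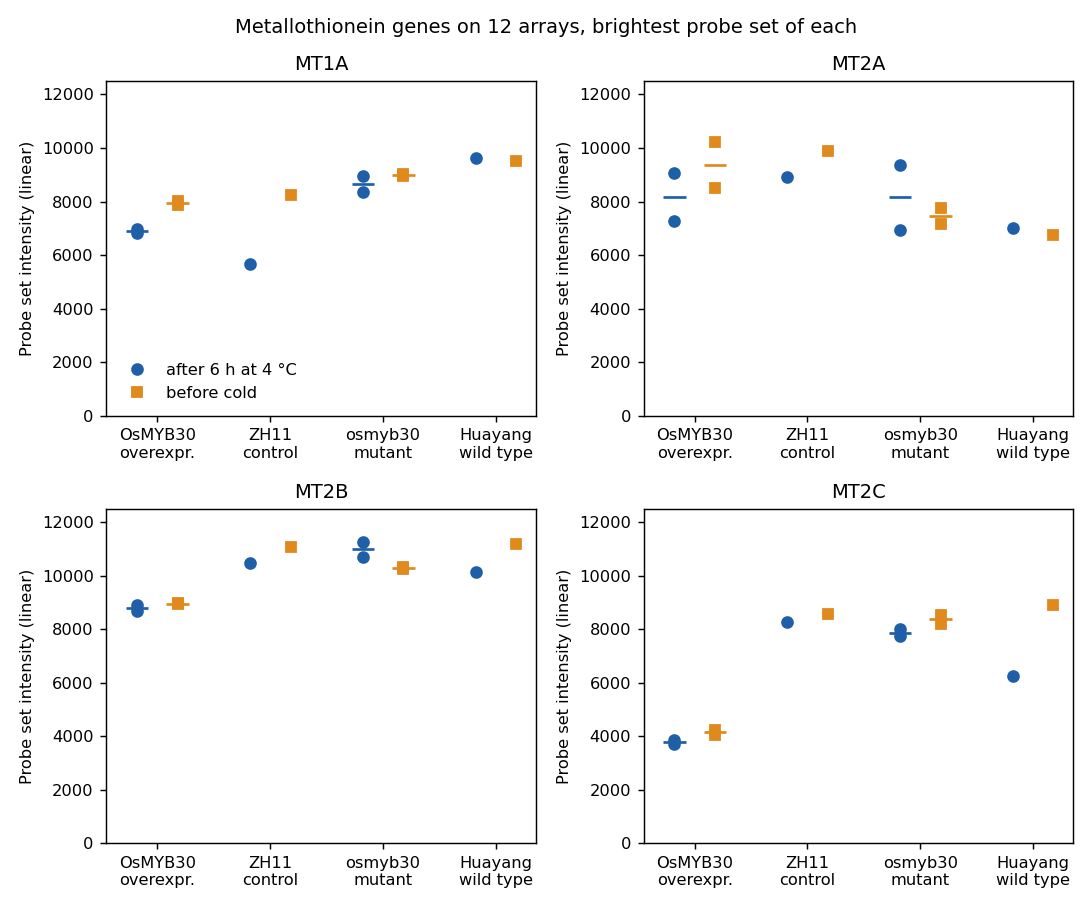
Intensity (linear, as deposited) of the brightest probe set of MT1A, MT2A, MT2B and MT2C on the 12 arrays, 1 point per array, by genotype, with 6 h of cold (circles) left of before cold (squares) and a short bar at the mean where a group has 2 lines. MT2C lies at 3703.8 to 4239.7 in the 4 overexpression arrays, below the 8287.2 and 8587.0 of the ZH11 control and below all 6 Huayang arrays.

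MT2C, a type 2 metallothionein gene, read less than the ZH11 control in both overexpression lines at both times. At 6 h of cold its brightest probe set read 3703.8 in line 2 and 3864.6 in line 28, against 8287.2 in the ZH11 control. Before cold it read 4056.2 in line 2 and 4239.7 in line 28, against 8587.0 in the ZH11 control. The 4 overexpression arrays lay close together and did not overlap the control at either time. On the normalized log2 scale the difference was -1.12 (SE 0.07) at 6 h and -1.07 (SE 0.07) before cold. Its mean over both times was -1.10 (SE 0.05), a 2.14-fold lower level. By line, line 2 differed from the control by -1.15 at 6 h and -1.11 before cold, and line 28 by -1.10 at 6 h and -1.03 before cold.

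The 5 probe sets of MT2C gave the same description. Their differences averaged over both times ran from -1.14 to -1.0. A second probe set of the _a_at kind read 3481.4 to 4002.8 in overexpression arrays, against 8048.8 and 8594.2 in control arrays. One of the 3 of the _x_at kind, with the smallest difference, read 2338.1 to 2676.5 in overexpression arrays, against 4749.7 and 5258.1 in control arrays. Correlations of the log2 values of the brightest probe set with the 4 others ran from 0.984 to 0.997 over 12 arrays. Over the 8 arrays without overexpression lines they ran from 0.777 to 0.963. These arrays share their RNA extracts between probe sets, and the coefficients are descriptions.

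**Figure D2:**
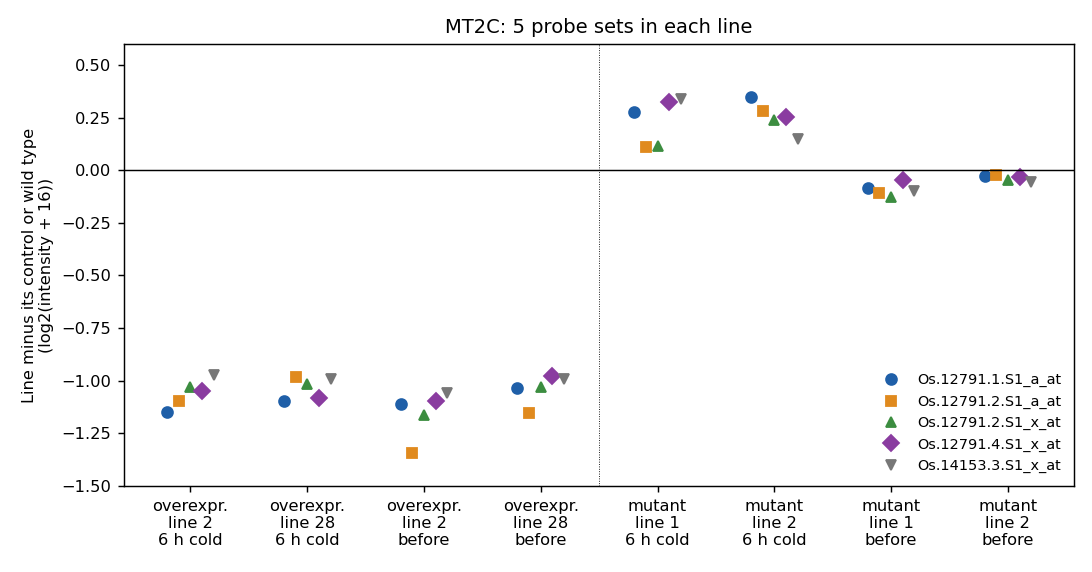
Difference of each overexpression line from the ZH11 control and of each mutant line from the Huayang wild type, at 6 h and before cold, in normalized log2(intensity + 16), with 1 symbol for each of the 5 MT2C probe sets and a line at 0. All 5 probe sets lie between -1.34 and -0.97 in the overexpression lines, and between -0.13 and 0.35 in the mutant lines.

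MT2B, a second type 2 gene, had a smaller difference in the same direction. It read 8891.7 in line 2 and 8666.7 in line 28 at 6 h, against 10464.2 in the ZH11 control. Before cold it read 8934.7 in line 2 and 8967.9 in line 28, against 11083.4 in the control. The overexpression arrays were again below the control at both times, with a mean log2 difference of -0.29 (SE 0.04). Its other tested probe sets, both of the _x_at kind, differed by -0.18 (SE 0.06) and -0.25 (SE 0.09).

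On its brightest probe set MT2A did not share this pattern, and neither did MT1A. MT2A read 9047.3 and 7271.6 in the overexpression lines at 6 h, against 8901.3 in the control. Before cold it read 10223.3 and 8503.7 in the overexpression lines, against 9904.0 in the control. On the normalized log2 scale line 2 differed from the control by 0.03 at 6 h and -0.00 before cold, and line 28 by -0.30 at 6 h and -0.24 before cold, with a mean difference of -0.13 (SE 0.13). The other tested MT2A probe set, of the _x_at kind, was lower in both lines on that scale. Line 2 differed there by -0.04 at 6 h and -0.46 before cold, and line 28 by -0.28 at 6 h and -0.54 before cold. MT1A, the type 1 gene, read 6975.2 and 6832.0 in the overexpression lines at 6 h, against 5681.8 in the control, a difference of 0.28. Before cold MT1A read 8028.3 and 7874.9 in the overexpression lines, against 8240.5 in the control, a difference of -0.05.

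At an adjusted p below 0.05, the share of all tested probe sets called between overexpression lines and control was 0.294% at 6 h, 0.545% before cold and 4.05% for the mean of both times. With 1 array left out these shares ran from 0.0903% (without line 28 at 6 h) to 0.376% at 6 h, from 0.154% (without line 2 before cold) to 0.860% before cold, and from 0.874% (without line 2 at 6 h) to 4.99% in the mean; each highest share was without mutant 1 at 6 h. Because this contrast led to the choice of the family, no count of members is set against these shares. The median difference of the 4 genes in the mean of both times was -0.21. It includes MT2C and is likewise only a description. No probe set was called for a difference in cold response between overexpression lines and control (0.0%). That interaction was 0.33 (SE 0.09) for MT1A and -0.05 (SE 0.09) for MT2C.

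Markers of dividing cells moved with MT2C. The summed intensity of 5 such genes, 3 of them dim on all arrays, was 323.6 to 368.5 in overexpression arrays, against 409 and 419.2 in ZH11 control arrays. The sum of 5 seed storage genes, 4 of them dim on all arrays, lay the other way, at 334.8 to 396.7 in overexpression arrays, against 318.2 and 320.9 in control arrays. The part of these markers in the MT2C difference was not tested. In tissue samples, fewer cells of a type and less RNA per cell cannot be told apart.

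In the osmyb30 mutants none of the 4 genes was called against the wild type. The share of all probe sets called was 0.0175% at 6 h, 0.0% before cold and 0.0175% in the mean of both times, and 0.0% for the interaction with cold. The 6 probe sets called at 6 h became 0 to 83 with 1 array left out, the 83 without mutant 1 at 6 h. At an unadjusted p below 0.05 the test gave 2 of 4 genes at 6 h, 0 before cold and 2 in the mean, among 3267, 1733 and 4300 of all probe sets. MT2C read 7756.0 in mutant 1 and 7996.5 in mutant 2 at 6 h, against 6255.2 in the wild type. Before cold it read 8193.1 in mutant 1 and 8540.3 in mutant 2, against 8901.1 in the wild type. The mutants thus lay above the wild type at 6 h and below it before cold. The log2 difference was 0.31 at 6 h (95% interval 0.16 to 0.47, limma adjusted p = 0.274) and -0.05 before cold (95% interval -0.21 to 0.10). The intervals are for single genes and are not adjusted. Averaged over both times the difference was 0.13 (limma adjusted p = 0.349), and the interaction with cold was 0.37 (SE 0.09, limma adjusted p = 1).

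The wild type array at 6 h was the lowest of the 6 Huayang arrays on all 5 MT2C probe sets. Besides 6255.2 on the brightest, it read 6317.2, 2300.3, 4116.6 and 4097.7. The mutant differences of the other genes in the mean of both times were -0.12 for MT1A (limma adjusted p = 0.344), 0.16 for MT2A (limma adjusted p = 0.65) and 0.01 for MT2B (limma adjusted p = 0.918). MT2A read 9380.0 in mutant 1 and 6943.4 in mutant 2 at 6 h, against 7005.4 in the wild type, and 7740.4 and 7156.9 in the mutants before cold, against 6737.1 in the wild type. Mutant 1 was the high array at 6 h, and mutant 2 was below the wild type there. The median difference of the 4 genes in the mutants was 0.07, beside -0.00 over all probe sets.

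MT1A fell after cold in the ZH11 background, where no other member was called. It read 6975.2, 6832.0 and 5681.8 at 6 h in line 2, line 28 and the control, against 8028.3, 7874.9 and 8240.5 before cold. All 3 arrays after cold were below all 3 before it. The log2 change was -0.32 (SE 0.08, n = 3 arrays per time, limma adjusted p = 0.0115), a level 0.803 of that before cold. The change was -0.19 in line 2, -0.22 in line 28 and -0.53 in the control. In this background 20.0% of all tested probe sets were called for cold, and 1 of the 4 metallothionein genes, so that the count is near the background share.

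In the Huayang background MT1A was not called. It read 8946.5, 8343.9 and 9630.8 at 6 h in mutant 1, mutant 2 and the wild type, against 8971.7, 9023.7 and 9519.0 before cold. The arrays after and before cold overlapped, and the change was -0.04. None of the 4 genes was called there, against 19.3% of all probe sets. For MT2C, with a change of -0.24, the SE of 0.31 includes the gap between overexpression lines and control. In the model of 8 group means it was called (limma adjusted p = 0.00545), beside 23.3% of all probe sets. The change of MT1A in ZH11 minus that in Huayang was -0.27 (SE 0.11, limma adjusted p = 1), and this difference between backgrounds did not pass the test. That test called 0.102% of all probe sets and none of the 4 genes.

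Root and secondary wall markers moved with MT1A in the ZH11 background. The summed intensity of the 3 root genes, 2 of them dim on all arrays, was 164.6 to 195.9 after cold, against 210.1 to 318.3 before. The sum of the 3 secondary wall cellulose synthase genes was 7390.6 to 7475 after cold, against 7569.6 to 8638.6 before. In Huayang the root sum was 144.2 to 227.4 after cold, against 202.5 to 288 before. The secondary wall sum there was 5517.7 to 6127.8 after cold, against 6822.8 to 7344.6 before, beside an MT1A change of -0.04. The part of these markers in the MT1A change was not tested.

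Over all 6 lines, with cultivar as a term, MT1A fell by 0.18 on the log2 scale after cold (SE 0.06, n = 6 arrays per time, limma adjusted p = 0.0444). It was lower after cold in 5 of 6 lines. This call was lost in 8 of 12 fits that left out 1 array, at limma adjusted p = 0.0584 to 0.0883. These arrays were all 4 of the overexpression lines, both of the ZH11 control, mutant 2 at 6 h and the wild type before cold. Without the ZH11 control at 6 h the change was -0.12. On its brightest probe set MT2C was lower after cold in 6 of 6 lines, by -0.09 to -0.16 in 5 of them and -0.49 in the wild type. Its other _a_at probe set rose in overexpression lines 2 (0.09) and 28 (0.02) and mutant 2 (0.01), and fell in the other lines. One _x_at probe set rose only in overexpression line 2 (0.06), another only in mutant 1 (0.11), and the last fell in all 6 lines. On the brightest probe set the change of -0.18 (SE 0.21) was not called (limma adjusted p = 0.528). That error includes the gap between overexpression lines and control, and with line as a fixed replicate block, the same line having been taken after and before cold, the limma adjusted p was 0.014. MT2A and MT2B each changed by -0.05 and were not called. The share of all probe sets called for cold in all lines was 35.1%, and 46.0% with line as a fixed replicate block. The median of the 4 genes was -0.12, beside 0.01 over all probe sets.

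**Figure D3:**
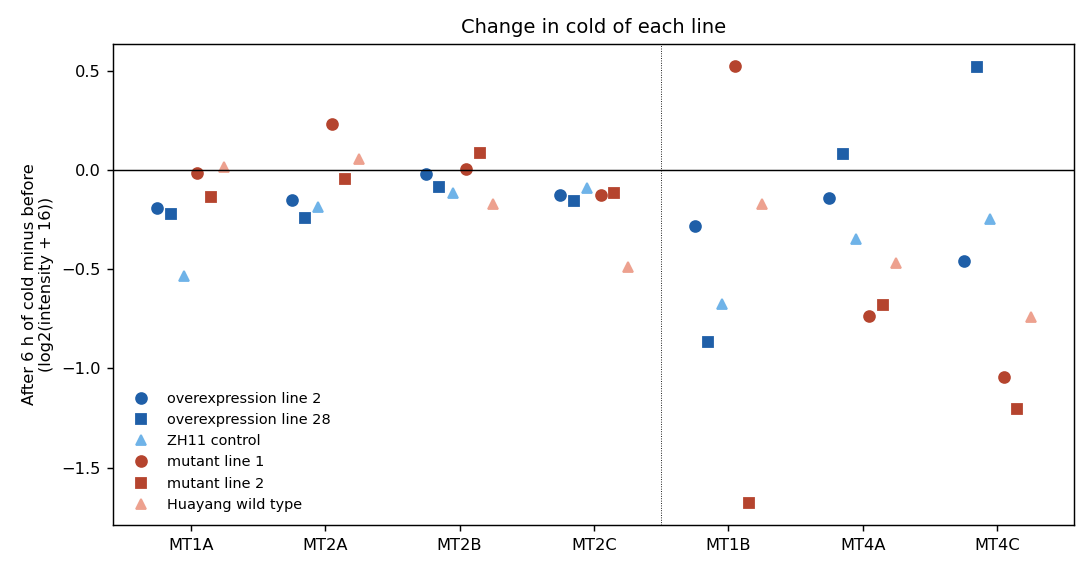
Change in normalized log2(intensity + 16) after 6 h of cold minus before, 1 point per line for 6 lines, for the brightest probe sets of the 4 members and, right of the dotted line, for MT1B, MT4A and MT4C; the line at 0 marks no change. MT1A lies at -0.53 in the ZH11 control and at 0.02 in the Huayang wild type, and MT2C lies below 0 in all 6 lines.

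The cultivar backgrounds were compared over 3 ZH11 and 3 Huayang arrays at each time, and 4 of the 6 ZH11 arrays are overexpression lines. At 6 h MT1A was lower in the ZH11 background, at 5681.8 to 6975.2, against 8343.9 to 9630.8 in Huayang, with no overlap. The log2 difference was -0.47 (SE 0.08, limma adjusted p = 0.00179), a 1.39-fold lower level. Between the single ZH11 control and Huayang wild type arrays at 6 h it was -0.77. Of all probe sets 10.6% were called at 6 h, and 1 of the 4 genes. For MT2B the brightest probe set was not called at 6 h (-0.21, limma adjusted p = 0.195), while 1 of its _x_at probe sets was, at -0.34. Before cold 5.26% of all probe sets were called and none of the 4 genes. The model of 8 group means called MT1A (-0.20, limma adjusted p = 0.0221), MT2B (-0.16) and MT2C before cold, beside 7.42% of all probe sets. It called MT2B also at 6 h, beside 14.0%. All of these MT2B differences include the overexpression lines, so no p-value is given for those called. Between the single ZH11 control and Huayang wild type arrays MT2B differed by -0.01 before cold and 0.05 at 6 h. MT2A was higher in ZH11 before cold, at 8503.7 to 10223.3, against 6737.1 to 7740.4 in Huayang. Its arrays did not overlap, yet the difference of 0.39 (SE 0.12) did not pass the test (limma adjusted p = 0.0985).

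The MT2C difference between backgrounds depended on the overexpression lines. With them in, it was -0.58 at 6 h and -0.70 before cold, and neither was called. In the model of 8 group means both were called. No p-value is given for MT2C there, because the overexpression arrays whose lower MT2C led to the choice of the family enter that model. Between the ZH11 control and the Huayang wild type alone, a comparison chosen after seeing the data, the MT2C difference was 0.37 at 6 h and -0.02 before cold. That comparison sets 1 array against 1, and the wild type array at 6 h is the one that read low on all 5 MT2C probe sets, so no test is given. The secondary wall sum also lay higher in ZH11 than in Huayang at both times, and its part in these differences was not tested.

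Probe sets of a gene agreed less for MT2A and MT2B than for MT2C. The second tested MT2A probe set correlated with the brightest at 0.520 over 12 arrays. For MT2B the 2 tested _x_at probe sets correlated at 0.868 and 0.698 over 12 arrays, and at 0.428 and -0.210 over the 8 arrays without overexpression lines.

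Among 2217 other named genes, likeness to a member was measured as Pearson's r of log2 values over the 12 arrays. MT2B and MT2C were each other's nearest gene, at 0.967, which was 0.690 without the overexpression arrays. TPP9, a trehalose-6-phosphate phosphatase gene, came close to both, at 0.929 for MT2B and 0.936 for MT2C, and at 0.366 and 0.0435 without the overexpression arrays. KIN14N, a kinesin gene near the dim limit at 71.1 to 94.6, reached 0.936 for MT2C. The gene OsIF1-1 reached 0.921 for MT2B, and 0.396 without the overexpression arrays. The genes nearest to MT1A were Cyanase (0.960), the receptor-like kinase gene CRK10 (0.951) and the methionine sulfoxide reductase gene MSRA2-1 (0.941). Without the overexpression arrays these 3 stayed at 0.967, 0.953 and 0.960. MT2A was most like the clock genes GI (0.867) and PRR73 (0.859) and the gene Lpa1 (0.832).

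**Figure D4:**
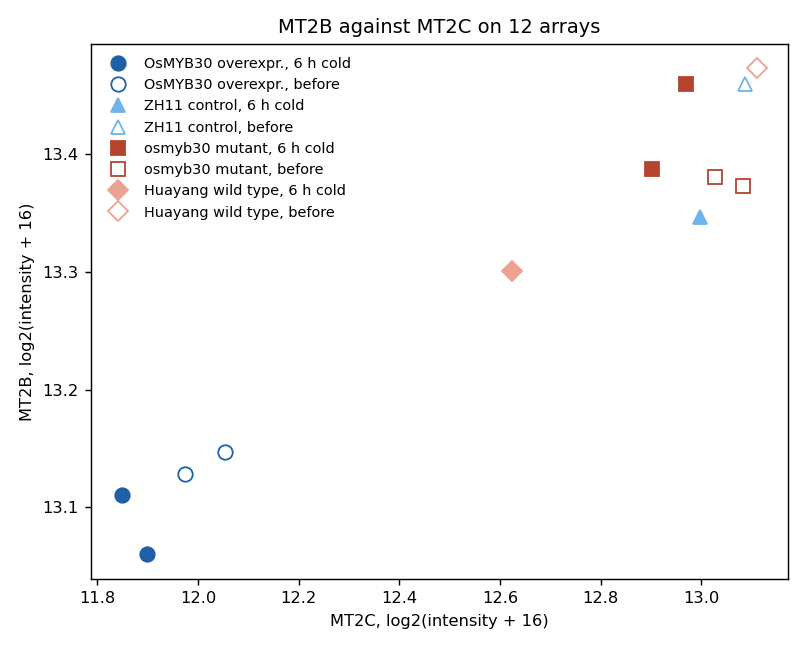
Normalized log2(intensity + 16) of MT2B (vertical axis) against MT2C (horizontal axis), brightest probe sets, 1 point per array for 12 arrays, with symbols by genotype, filled at 6 h of cold and open before it. The 4 overexpression arrays form a separate cluster low on both axes, and the coefficient of 0.967 over all arrays is 0.690 over the 8 others.

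Other metallothionein genes were read by 3 more probe sets. MT1B, a type 1 gene, ranged from 335.5 to 1918.3 and was not called in any contrast of cold, background or mutant. Its change after cold was -1.68 in mutant 2 and 0.53 in mutant 1. MT4A, a type 4 gene, ranged from 2043.8 to 4790.3 and fell in Huayang after cold by 0.63 (SE 0.20, limma adjusted p = 0.048). The change was -0.73 and -0.68 in the mutants and -0.47 in the wild type. Its arrays after and before cold overlapped there, and 19.3% of all probe sets were called. Alternative settings were not examined for MT4A. MT4C was dim on 3 arrays and ranged from 38.3 to 240.6, with a change after cold in Huayang of -1.0 (limma adjusted p = 0.062). Against the ZH11 control, again as a description, MT1B differed by -1.09 at 6 h and -1.48 before cold in overexpression line 2. In line 28 it differed by -0.62 and -0.43. MT4A lay higher, by 0.29 and 0.08 in line 2 and by 0.62 and 0.20 in line 28. MT4C also lay higher, by 1.03 and 1.25 in line 2 and by 1.31 and 0.55 in line 28. Its control arrays were dim, at 38.3 and 48.5.

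Other genes of metal handling were taken from a list of metal transport and chelation, of which 31 of 56 names had a probe set and 30 were tested. After cold in all lines 8 fell and 1 rose, and 21 were not called, against 20.2% of all probe sets lower and 14.9% higher. Median centring of the arrays gave 25.1% lower and 9.40% higher, and values as deposited gave 23.9% lower and 10.97% higher. The list's median was -0.08, beside 0.01 over all probe sets. Those that fell included NAAT1, an enzyme of the synthesis of iron-chelating mugineic acids (-0.70), the vacuolar zinc transporter MTP1 (-0.65) and the manganese and cadmium importer NRAMP5 (-0.47). The gene that rose, the transporter YSL18 (0.19), was dim on all 12 arrays. Before cold 6 genes were lower in ZH11 than in Huayang and none was higher, against 2.97% and 2.29% of all probe sets. They included the iron transporter NRAMP1 (-2.55), NAAT1 (-1.32) and the nicotianamine synthases NAS1 and NAS2. NAS1 was dim on 6 of 12 arrays and NAS2 on 1, so no size is given for them.

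Between mutants and wild type 0 of the 30 were called in the mean of both times, against 0.00583% of all probe sets lower and 0.0117% higher. In overexpression lines against control, NAAT1 stood at 0.65 and NRAMP5 at -0.70, beside 2.17% of all probe sets called higher and 1.88% lower. Median centring of the arrays turned that split to 4.09% higher and 1.03% lower, and values as deposited gave 3.0% higher and 1.36% lower. A list of superoxide and peroxide enzymes had 14 tested genes. After cold in all lines 1 of them rose and 0 fell, against 14.9% of all probe sets higher and 20.2% lower. The gene that rose was APX8, a chloroplast ascorbate peroxidase (0.20). In the mutants 0 were called. Before cold RBOHB, an NADPH oxidase, was higher (0.32) and APX5 lower (-0.50, dim on 3 of 12 arrays) in ZH11 than in Huayang. The 12 others of this list were not called there, against 2.29% of all probe sets higher and 2.97% lower. APX7 stood at 0.86 in overexpression lines against control.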

How the data were processed

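The deposited values are probe set intensities on a linear scale, 1 per array. The authors' summary and normalization methods are not given in the sources used here. Gene names came from a table pairing probe sets with genes: 22436 had 1 gene, 95 several and 34663 none, and 187 array controls were left out. From the deposited intensities log2(value + 16) was computed, which understates changes of dim probe sets. Array quartiles differed by up to 0.237, above a limit of 0.2, so arrays were quantile normalized. Probe sets whose mean lay below the 40th percentile were dropped, which left 34316. The limma package 3.58.1 under R 4.3.3 fitted the models (lmFit, eBayes with trend), with Benjamini-Hochberg adjustment over all kept probe sets and calls below 0.05. Genotypes were compared in a model of 8 group means (4 residual degrees of freedom), which lets the lone array of a control or wild type take the spread of the other groups. Backgrounds, and cold within them, used a model of 4 group means (8 residual degrees of freedom), and cold in all lines used cultivar plus time.

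Members, lists and tests were chosen with earlier results of these data known. Every probe set of the members was read on every array, and the 3 most similar named genes of each member were found. The line pairs the arrays: deviations of a line's arrays correlated at 0.517 (overexpression) and 0.429 (mutant), 2 lines each, and a random replicate block had a correlation of 0.362 for cold in all lines. On simulated data, with 200 probe sets changed by 1 on the log2 scale, 92.5% were recovered for cold in ZH11, 98% for cold in all lines and 89.5% for mutants in the mean. The simulated arrays held no pairing by line and no other differences between groups, unlike the data. Smaller changes were not simulated. The number of arrays limits the precision. Alternatives covered scaling, filters, pseudocounts, eBayes settings, blocks, models and each array left out.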

Additional observations from a re-analysis of the deposited data

Results flagged for a closer look

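The control probe set of the RPTR class lies outside the comparisons made here. In the library labelled Huayang wild type it read 3821.8 at 6 h and 2658.5 before cold, far above its 64.3 and 18.6 in the ZH11 control, which is what drew attention to it. No group held the 4 samples needed to look for a single array standing apart.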

How the results depend on the processing

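MT1A kept its call for cold in ZH11 (-0.22 to -0.37) and between backgrounds at 6 h under all alternatives, leaving aside the ZH11 control against the Huayang wild type alone. Its differences between backgrounds at 6 h ran from -0.38 to -0.77, the latter between those single arrays. For cold in all lines 1 of the 4 genes was called, beside 35.1% of all probe sets. The count became 0 with no filter (20.8% of all probe sets) or eBayes without trend (35.0%). It became 2 with line as a fixed replicate block (46.0%) or 8 group means (39.8%). With an array left out it was 0 to 1 (29.5% to 37.1%). With 8 group means 1 was called for cold in Huayang (0 otherwise), beside 23.3% of all probe sets. Between backgrounds before cold that model called 3 (otherwise 0, and 0 to 1 with an array left out), beside 7.42%. At 6 h it called 3 (otherwise 1, and 1 to 2 with an array left out), beside 14.0%. At 6 h the ZH11 control against the Huayang wild type alone, 1 array against 1, turned MT2C to 0.374, and its calls are not counted. For overexpression lines against control, the contrast behind the choice of the family, no count of members is given. Other counts of called members stayed within 1.5 times. Counts over all probe sets moved more. With line as a random replicate block they were 12065 for cold in ZH11 (6876 without), 10892 for cold in Huayang (6616), 153 for the difference between these (35) and 421 for overexpression lines in the mean of both times (1390). Before cold the overexpression count of 187 was 318 with values as deposited and 575 with arrays centred on medians. The count for mutants at 6 h, 6, was 12 with no filter, 1 with eBayes without trend and 11 with only Huayang arrays, and in the mean, also 6, it was 11 with centred arrays or no filter, 3 without trend and 1 with the random replicate block. The difference between backgrounds in cold ran from 13 to 54 with an array left out, that between backgrounds before cold from 1056 to 1964, and at 6 h from 2310 to 4294. The causes were not tested.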
